A study of Rattus norvegicus with 6 samples.

Results

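Interferon-stimulated genes and interferon regulatory factors were examined in rat brain as a set of 44 symbols, taken from a list of names that was drawn up with earlier results of these data known. A single row of the deposited gene table carried each of 43 of them, out of 32623 rows, and Oas1b had no row under that symbol and was dropped. RNA was measured by poly(A) sequencing in 6 brain libraries. The genotype label of 3 libraries was pcDNA3.1, an empty mammalian expression plasmid (vector), and that of the other 3 was the same plasmid with an insert for LINC00894, a long non-coding RNA of human origin (LINC00894). The title of the series refers to ischemia and reperfusion of the brain, yet the labels gave neither surgery, brain region, route of plasmid delivery, strain, sex nor age for any group, and did not say that each library came from its own animal. The p-values below therefore rest on the spread among these libraries, part of which may be technical. No row carried the symbol LINC00894, so the level of the insert was not analysed here.

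Cells that sense foreign or misplaced nucleic acid through RIG-I-like receptors, Toll-like receptors or cGAS activate IRF3 and IRF7, which switch on type I interferon genes. Secreted interferon then acts through its receptor, JAK kinases and a complex holding STAT2 and IRF9 that binds the interferon-stimulated response element (ISRE) in the promoters of antiviral genes, while interferon gamma acts at the gamma activated site (GAS). In brain, microglia, border macrophages, endothelium, astrocytes and neurons can all express such genes, and stroke in rodents is known to induce them. In a bulk library, fewer cells of a type and less RNA per cell cannot be told apart.

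Promoter sequences are shown first for the members whose libraries separated most between the groups. RefSeq promoters of the GRCr8 assembly, from 250 bases before to 50 bases after the gene start, were found for 33 of the 43 members. The ISRE core GAAANNGAAA, searched on both strands, was in 20 of these 33 (60.6%) and in 3.77% of 27457 promoters of the same length. The GAS core TTCNNNGAA, which reads alike on both strands, was in 8 of 33 (24.2%) and in 8.68% of all promoters, and the motifs overlapped in 1 member, Bst2. A match is a string of letters, not a shown binding site, and the set was assembled from genes known to respond to interferon. In the promoter of Lgals9 (chr10:64428021-64428320, minus strand) the ISRE core, in capitals in each sequence that follows, began 16 bases before the start, and in that of Ifi44 (chr2:243303791-243304090, minus strand) there was 1 core before and 1 after the start:
Lgals9: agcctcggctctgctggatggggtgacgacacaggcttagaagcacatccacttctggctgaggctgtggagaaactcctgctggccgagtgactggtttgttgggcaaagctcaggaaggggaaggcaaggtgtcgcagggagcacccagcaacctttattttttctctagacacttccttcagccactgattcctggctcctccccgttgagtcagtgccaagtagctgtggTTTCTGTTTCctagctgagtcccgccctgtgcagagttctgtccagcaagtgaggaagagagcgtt
Ifi44: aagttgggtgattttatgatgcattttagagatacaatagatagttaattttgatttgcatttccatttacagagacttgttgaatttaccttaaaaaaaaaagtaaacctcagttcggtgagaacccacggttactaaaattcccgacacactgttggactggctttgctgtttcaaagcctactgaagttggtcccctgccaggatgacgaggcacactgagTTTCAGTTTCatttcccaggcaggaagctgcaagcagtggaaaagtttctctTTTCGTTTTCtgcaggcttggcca

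Shorter windows around the first ISRE core follow for 3 more members whose LINC00894 libraries all exceeded the vector libraries (Ifi27, Ifih1 and Eif2ak2). Beside them stand 3 members whose groups overlapped: Dtx3l, the neighbour of Parp9, Ifit3, and Isg20, the member with the most negative fitted change. They lie at chr6:128355133-128355162 (plus), chr3:67684008-67684037 (minus), chr6:21941128-21941157 (plus), chr11:78320225-78320254 (plus), chr1:241527272-241527301 (plus) and chr1:142239957-142239986 (plus) of GRCr8, in that order:
Ifi27: gagagcagggGAAAAGGAAAcctctccttg
Ifih1: gaagagaatcGAAACAGAAAccgatgtgtg
Eif2ak2: agtccgccggGAAAACGAAAcagagagaac
Dtx3l: cccgggaaacGAAACTGAAActttgcctct
Ifit3: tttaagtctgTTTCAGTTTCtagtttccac
Isg20: taatgaaccaGAAACTGAAActaaaacggc
The core was present in members at either end of the range. Of the other separated members, Parp9 and Ifi35 had no ISRE core in the window, and Mx2 and Dhx58 had no promoter entry. Thus 5 separated members were among the 19 tested with the core and 2 among the 13 without it. On the same FPKM scale 7.86% of all genes tested were separated in this direction, and the counts were not tested against each other or that share. For Lgals9 and Eif2ak2, 2 of the 33 matched members, the promoter entry lies on the opposite strand to the measured row, and the entries were matched by symbol across assemblies. Among tested members with a promoter, the median log2 fold change (LINC00894 minus vector) was 0.38 in the 19 with the core and 0.34 in the 13 without it, a description with no test.

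Most members had somewhat higher levels in LINC00894 than in vector libraries, and none passed the test. Of the 43 members, 40 passed the filter on low counts, and 36 of these 40 had a positive log2 fold change, where 51.8% of all genes did. The median over the 40 was 0.37, against 0.012 over all 15121 genes tested. By edgeR's quasi-likelihood test with Benjamini-Hochberg adjustment, 0 members passed an adjusted p of 0.05, as did 0% of all genes. DESeq2 called 0 members and 11 genes in all (0.0727%), and the smallest adjusted p among members was 0.34 by DESeq2, for Lgals9, and 0.981 by edgeR. At an unadjusted p under 0.05 by edgeR, 5 members were higher and 0 lower, where 1.82% of all genes were higher and 2.22% lower. By DESeq2, 5 members and 4.33% of all genes were at an unadjusted p under 0.05.

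A single library carried much of this difference. LINC00894 replicate 1 was the highest of the 6 libraries for 26 of the 40 tested members (65%), where it was highest for 27% of all genes. By library, the median over members of log2 CPM minus the gene's mean was -0.07, -0.26 and -0.17 in vector replicates 1 to 3 and 0.46, -0.01 and 0.16 in the LINC00894 replicates, so LINC00894 replicate 2 lay between the vector libraries and the other LINC00894 libraries. Scaled by summed counts alone, 39 of 40 members were positive, with Ifit2, Irf3 and Rtp4 changing sign and Isg20 still negative. That scaling raised the median over all genes as well, to 0.080, beside 0.44 over members. With median-of-ratios factors 35 members were positive, with Herc6 changing sign, and the median over all genes was -0.006. Without LINC00894 replicate 1, 27 of 40 members were higher and the median was 0.14. In that edgeR fit 1 member was at an unadjusted p under 0.05, beside 591 of 15344 genes. With 1 library left out, 17 of the 40 members changed sign, 18 kept it but moved by over 1.5 times, and 5 (Lgals9, Ifi44, Ifi27, Parp9 and Eif2ak2) stayed within that factor. The count of members at an unadjusted p under 0.05 by edgeR was 2 without vector replicate 2, 8 without LINC00894 replicate 2 and 1 without LINC00894 replicate 3. Over all genes the counts were 592 of 15427, 1104 of 15417 and 394 of 15400, in the same order.

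**Figure D1:**
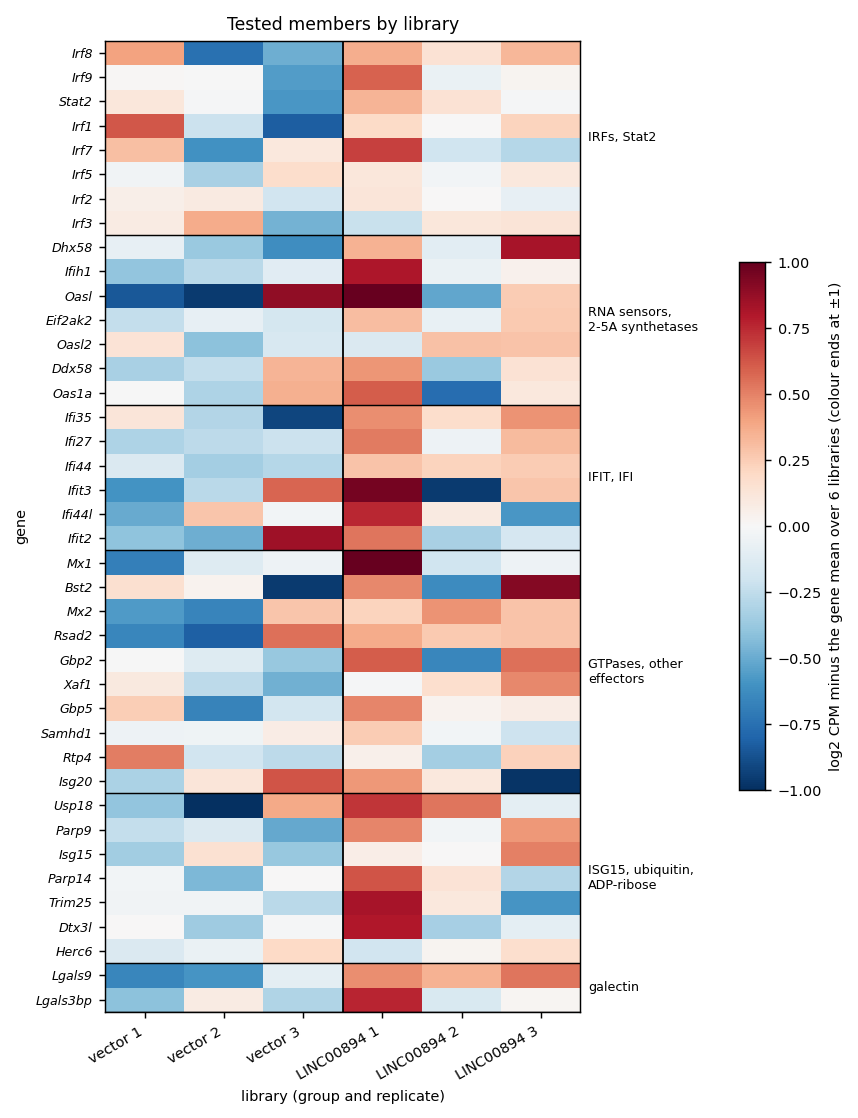
Each row is a tested member and each column a library, and colour gives log2 CPM (TMM-scaled) minus the gene's mean over the 6 libraries; rows are grouped by role and sorted within each by fitted log2 fold change. The column of LINC00894 replicate 1 is red for most of the 40 genes, and that of LINC00894 replicate 2 is mixed.

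Library facts that touch these values are few. Summed gene counts ran from 12843875 to 16268464. The TMM factors that multiply these sums in the fits were 0.9675, 0.9933 and 0.9695 in vector replicates 1 to 3. In the LINC00894 replicates they were 1.039, 1.005 and 1.028, all above those of vector. Deposited FPKM lack these factors, so LINC00894 reads somewhat higher against vector in FPKM than in the fits. The Y-linked Kdm5d and Eif2s3y had 0 counts in LINC00894 replicates 1 and 2 and at least 491 counts each in the other 4 libraries, so presence of Y-linked transcripts was split within LINC00894 and not within vector. The 4 libraries with Y-linked counts hold LINC00894 replicate 3 as the only LINC00894 library. Among them, 32 of 40 members were higher in that library than in vector, with a median log2 fold change of 0.23. With that presence as a covariate the numbers were 32 and 0.22. The covariate fit also sets LINC00894 replicate 3 alone against vector, so these fits are not separate checks and cannot tell group from replicate.

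The 3 LINC00894 libraries all lay above the 3 vector libraries for 9 of the 40 tested members (22.5%) and below them for 0, on the FPKM scale. Over all genes tested these shares were 7.86% above and 2.34% below. With TMM-scaled CPM, a scaling compared after seeing the data, the 9 became 7 (17.5%), losing Mx2 and Dhx58, beside 4.98% above and 3.88% below over all genes. The 9 members come from all but 1 of the 6 role groups into which the set was divided, the exception being the interferon regulatory factors with Stat2. That group has 8 members, and its count of 0 was not tested against the share of 7.86%. With TMM-scaled CPM no member of the GTPase and effector group remained separated either. FPKM below are the deposited values, in replicate order, followed by mean ± SD with n = 3.

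**Figure D2:**
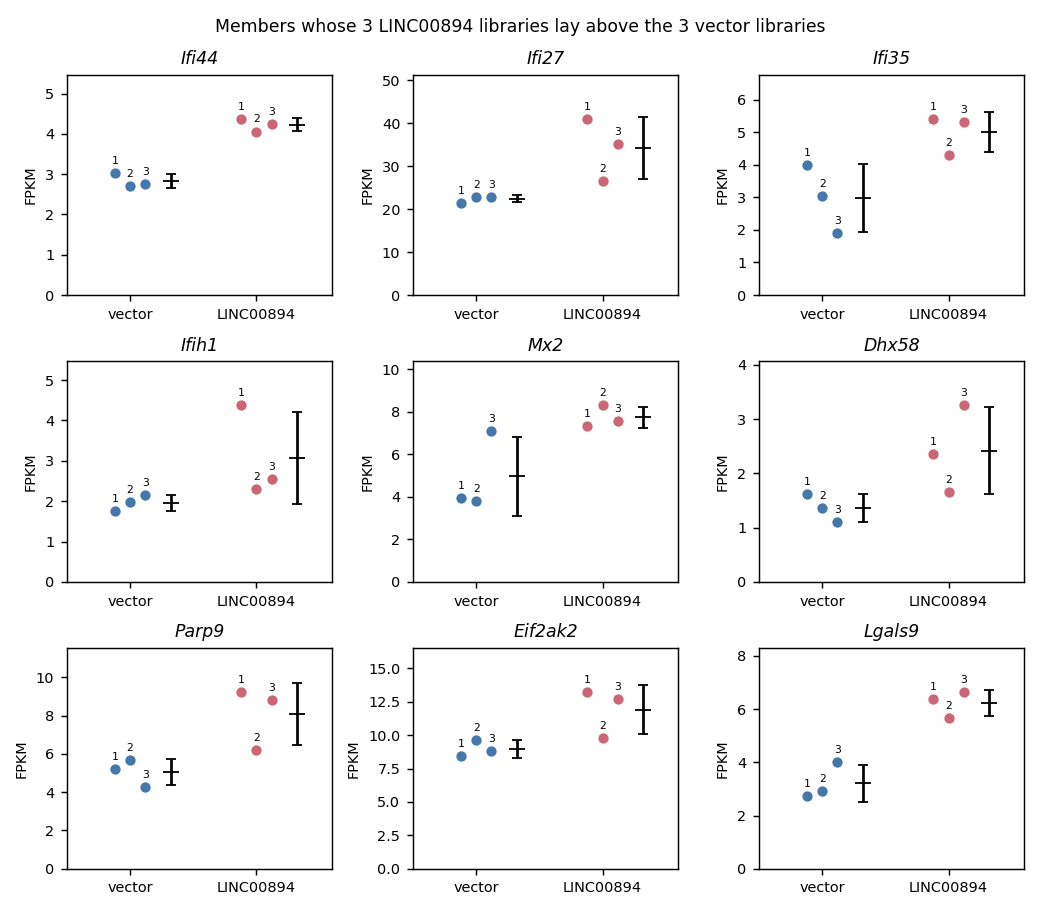
Points give deposited FPKM in each library, numbered by replicate, for the 9 members whose groups did not overlap; bars give the mean and SD of the 3 libraries of a group, and each vertical axis starts at 0. LINC00894 replicate 2 is the lowest LINC00894 library in 8 of the 9 panels, Mx2 being the exception.

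Lgals9 and Lgals3bp were grouped as secreted lectin-related members. Lgals9, which encodes galectin 9, a glycan-binding protein that interferon induces in endothelium and myeloid cells, measured 2.72, 2.93 and 4.01 FPKM with vector against 6.37, 5.67 and 6.63 FPKM with LINC00894. The LINC00894 libraries were close together and all well above vector, at 6.22 ± 0.496 against 3.22 ± 0.692 FPKM. This was the largest fitted change of a tested member, with a log2 fold change of 0.88 (SE 0.22, 95% interval 0.38 to 1.38) by edgeR and an unadjusted p of 0.00303. It ranged from 0.77 to 1.06 when each library was left out in turn. Lgals9 (ENSRNOG00000012681) lies on chromosome 10 from 64737022 to 64760201 in the deposited coordinates, for which the sources used here give no build. Lgals3bp, a secreted glycoprotein that binds galectin 3, measured 5.74, 8.31 and 6.19 FPKM with vector against 13.88, 7.12 and 8.23 FPKM with LINC00894, where replicate 1 alone stood clear of the vector libraries.

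Among the RNA sensors and 2-5A synthetases, all 7 tested members had positive log2 fold changes, with a median of 0.34. Ifih1, the MDA5 sensor of long RNA duplexes, measured 1.76, 1.97 and 2.15 FPKM with vector against 4.37, 2.30 and 2.54 FPKM with LINC00894 (1.96 ± 0.195 and 3.07 ± 1.13; log2 fold change 0.57, SE 0.28, and 0.24 without LINC00894 replicate 1). Its groups did not overlap, but LINC00894 replicates 2 and 3 were close to vector replicate 3. Dhx58, which encodes LGP2, a regulator of the other RIG-I-like receptors, measured 1.62, 1.36 and 1.11 FPKM with vector against 2.35, 1.66 and 3.25 FPKM with LINC00894 (0.76, SE 0.32, unadjusted p 0.0409, and 0.47 without LINC00894 replicate 3). Ddx58, the RIG-I gene, measured 2.04, 2.23 and 3.26 FPKM with vector against 3.75, 2.04 and 3.01 FPKM with LINC00894, and the groups overlapped. Eif2ak2, the kinase PKR that phosphorylates eIF2 alpha when bound to duplex RNA, measured 8.41, 9.67 and 8.82 FPKM with vector against 13.20, 9.81 and 12.69 FPKM with LINC00894 (0.34, SE 0.17). LINC00894 replicate 2 exceeded vector replicate 2 by little. Oasl2, an OAS-like gene, measured 2.49, 1.74 and 2.03 FPKM with vector against 2.19, 2.88 and 2.94 FPKM with LINC00894. The other OAS genes were below 1 FPKM in both group means: Oas1a ran from 0.46 to 1.28 FPKM and Oasl from 0.18 to 0.92 FPKM, while Oas2 had 0 to 8 and Oas3 0 to 6 counts per library and failed the filter. Oasl was highest in LINC00894 replicate 1 (0.92 FPKM) and next highest in vector replicate 3 (0.69 FPKM), and its log2 fold change had an SE of 0.65.

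Of the IFIT and IFI genes, 5 of 6 tested members were higher, with a median log2 fold change of 0.40. Ifi44, a cytoplasmic protein of unsettled biochemical role, measured 3.03, 2.70 and 2.75 FPKM with vector against 4.38, 4.06 and 4.24 FPKM with LINC00894 (0.51, SE 0.20, unadjusted p 0.0309). Among the 9 separated members, it had the lowest SD within LINC00894. Ifi27, which encodes a small hydrophobic mitochondrial protein, was the most abundant of these genes per length, at 21.53, 22.80 and 22.93 FPKM with vector against 41.09, 26.64 and 35.16 FPKM with LINC00894 (22.4 ± 0.773 and 34.3 ± 7.26; 0.54, SE 0.20, unadjusted p 0.0217). The vector libraries were nearly equal, and the LINC00894 libraries were spread. Ifi35, a leucine zipper protein that pairs with NMI, measured 3.98, 3.04 and 1.90 FPKM with vector against 5.42, 4.29 and 5.32 FPKM with LINC00894 (0.69, SE 0.33, and 0.43 without vector replicate 3). Ifi44l measured 0.84, 1.52 and 1.19 FPKM with vector against 2.24, 1.34 and 0.84 FPKM with LINC00894. Of the IFIT proteins, IFIT1 binds RNA whose 5′ end lacks the methylation of host caps. Ifit3 measured 3.21, 4.15 and 7.33 FPKM with vector against 10.17, 2.59 and 6.27 FPKM with LINC00894, and Ifit2 measured 2.15, 2.07 and 5.13 FPKM with vector against 4.44, 2.35 and 2.68 FPKM with LINC00894. Both had high values in vector replicate 3 and LINC00894 replicate 1, and the groups overlapped. Ifit1 had 2 to 16 counts per library and failed the filter, with the 16 in LINC00894 replicate 1.

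Among GTPases and other antiviral effectors, 8 of 10 members were higher, with a median log2 fold change of 0.43. On the FPKM scale, 1 of the 10 had its LINC00894 libraries all above vector, where 7.86% of all genes did. That member was Mx2, a dynamin-like GTPase, at 3.96, 3.80 and 7.12 FPKM with vector against 7.34, 8.30 and 7.58 FPKM with LINC00894 (0.57, SE 0.27). In FPKM, vector replicate 3 lay just below the LINC00894 libraries, and with TMM-scaled CPM the groups overlapped. Without vector replicate 3 the fitted value was 0.92. Its relative Mx1 measured 0.72, 1.09 and 1.13 FPKM with vector against 2.74, 1.06 and 1.20 FPKM with LINC00894, so that only LINC00894 replicate 1 stood apart. Bst2, the tetherin that holds budding virions at the membrane, measured 7.68, 7.20 and 3.49 FPKM with vector against 10.32, 4.56 and 13.80 FPKM with LINC00894, with replicates 1 and 3 high and 2 low. The guanylate-binding protein genes, typical targets of interferon gamma, had the same high and low LINC00894 libraries in the case of Gbp2, at 5.99, 5.65 and 4.64 FPKM with vector against 9.86, 3.95 and 9.37 FPKM with LINC00894. Gbp5 measured 1.88, 1.01 and 1.39 FPKM with vector against 2.39, 1.68 and 1.76 FPKM with LINC00894. Rsad2, which encodes viperin, an enzyme that makes a chain-terminating nucleotide, measured 0.94, 0.86 and 2.18 FPKM with vector against 2.06, 1.85 and 1.92 FPKM with LINC00894. Its highest library was vector replicate 3, as for Ifit2 and Isg20. Isg20, an exonuclease, measured 0.94, 1.34 and 1.89 FPKM with vector against 1.75, 1.34 and 0.60 FPKM with LINC00894 (-0.25, SE 0.50). Xaf1, an antagonist of the apoptosis inhibitor XIAP, measured 5.93, 4.73 and 3.96 FPKM with vector against 5.88, 6.46 and 8.24 FPKM with LINC00894. Samhd1, a dNTP hydrolase, measured 2.93, 3.02 and 3.21 FPKM with vector against 3.88, 3.08 and 2.79 FPKM with LINC00894, and Rtp4, a receptor transporter protein, at 1.43, 0.89 and 0.82 FPKM with vector against 1.11, 0.81 and 1.25 FPKM with LINC00894. For Samhd1 and Rtp4 the fitted changes were 0.02 (95% interval -0.48 to 0.52) and -0.06 (-0.92 to 0.80).

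ISG15 is a ubiquitin-like protein that is coupled to other proteins, and 7 of 7 members of its group had positive log2 fold changes, with a median of 0.36. Isg15 itself was low, at 1.82, 2.67 and 1.79 FPKM with vector against 2.62, 2.43 and 3.54 FPKM with LINC00894. Usp18, the protease that removes ISG15 and restrains the type I receptor, measured 1.11, 0.67 and 1.92 FPKM with vector against 2.62, 2.22 and 1.46 FPKM with LINC00894 (0.69, SE 0.44, with 0.38 without vector replicate 2 and 1.17 without vector replicate 3). Herc6, the ligase for ISG15 in mouse, was the most abundant of the group per length and had the fitted change closest to 0, at 9.51, 10.29 and 12.08 FPKM with vector against 9.86, 11.11 and 12.52 FPKM with LINC00894 (0.003, 95% interval -0.39 to 0.39). Trim25, a ubiquitin ligase that acts on RIG-I, measured 2.49, 2.55 and 2.12 FPKM with vector against 4.87, 2.85 and 1.79 FPKM with LINC00894, whose replicates 1 and 3 were the highest and the lowest of the 6. Parp9, a macrodomain protein that works as a dimer with the ubiquitin ligase Dtx3l, measured 5.19, 5.67 and 4.29 FPKM with vector against 9.21, 6.22 and 8.81 FPKM with LINC00894 (5.05 ± 0.7 and 8.08 ± 1.62; 0.61, SE 0.21, unadjusted p 0.0169). Dtx3l measured 1.94, 1.55 and 1.92 FPKM with vector against 3.64, 1.60 and 1.92 FPKM with LINC00894. LINC00894 replicate 3 was thus high for Parp9 and level with vector for Dtx3l. Parp14, a mono-ADP-ribosyltransferase, measured 1.95, 1.50 and 2.01 FPKM with vector against 3.33, 2.28 and 1.73 FPKM with LINC00894.

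**Figure D3:**
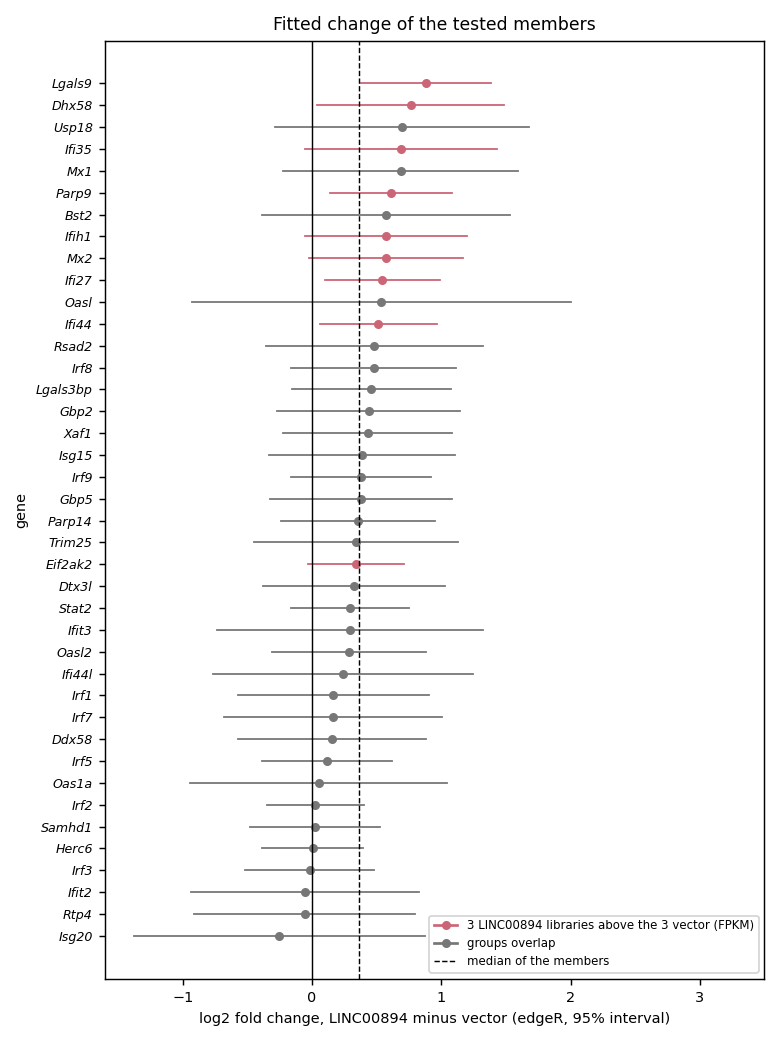
Points give edgeR's fitted log2 fold change of LINC00894 over vector for the 40 tested members, with 95% intervals; red marks the 9 whose groups did not overlap on the FPKM scale and the dashed line the members' median of 0.37. Intervals of 5 members exclude 0 before adjustment: Lgals9, Dhx58, Parp9, Ifi27 and Ifi44.

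The transcription factors showed smaller differences, with 7 of 8 positive and a median log2 fold change of 0.16. None had separate groups on the FPKM scale, where 7.86% of all genes were separate with LINC00894 above and 2.34% with it below. The other 32 tested members had a median of 0.41, and the difference between these medians was not tested. Irf3, which is present before any stimulus and is activated by phosphorylation, was the most abundant factor per length, at 37.15, 46.83 and 25.39 FPKM with vector against 32.40, 39.41 and 40.89 FPKM with LINC00894 (-0.02, 95% interval -0.52 to 0.48). Irf9 and Stat2, subunits of the factor that binds the ISRE, had the same highest and lowest libraries. Irf9 measured 15.76, 16.04 and 10.62 FPKM with vector against 25.30, 15.54 and 17.00 FPKM with LINC00894, and Stat2 measured 14.80, 13.96 and 9.16 FPKM with vector against 18.58, 15.73 and 14.43 FPKM with LINC00894. These were LINC00894 replicate 1 and vector replicate 3. Irf7, the factor that amplifies type I interferon production, was low, at 2.54, 1.37 and 2.22 FPKM with vector against 3.56, 1.85 and 1.79 FPKM with LINC00894. Irf1, itself a target of interferon gamma, measured 10.88, 6.22 and 3.97 FPKM with vector against 8.63, 7.34 and 8.76 FPKM with LINC00894, and its highest and lowest libraries were both vector. Irf2, which can oppose Irf1, varied little, at 9.87, 10.32 and 8.29 FPKM with vector against 11.01, 9.84 and 9.50 FPKM with LINC00894. Irf8, a myeloid and microglial factor, measured 10.79, 4.98 and 5.84 FPKM with vector against 11.25, 9.36 and 10.91 FPKM with LINC00894 (0.48, SE 0.29, with 0.26 without vector replicate 2 and 0.88 without vector replicate 1), with vector replicate 1 at the LINC00894 level. Irf5, which acts downstream of Toll-like receptors in myeloid cells, measured 3.98, 3.32 and 4.60 FPKM with vector against 4.72, 4.14 and 4.66 FPKM with LINC00894. Irf3, Irf5 and Irf7 overlap Bcl2l12, Tnpo3 and Phrf1 on the opposite strand, and the sources used here do not say whether counting used strand, so reads of these pairs cannot be told apart. Tnpo3 and Phrf1 had at least 926 counts in every library, beside 125 to 170 for Irf5 and 44 to 92 for Irf7. Bcl2l12 had 21 to 50 counts, beside 577 to 1100 for Irf3.

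Several members are neighbours on the genome. In the deposited coordinates, Ifit2, Ifit3 and Ifit1 lie in this order on chromosome 1 from 252894663 to 252946170. Parp9 and Dtx3l lie 1.13 kb apart on opposite strands of chromosome 11, with their starts side by side, and Mx1 and Mx2 lie 120 kb apart on the same chromosome. Oas3 and Oas2 lie 4.25 kb apart and Oasl and Oasl2 12.7 kb apart on chromosome 12, and Gbp5 with Gbp2 and Ifi44 with Ifi44l form close pairs on chromosome 2. Members of the IFIT, OAS, MX and GBP families resemble each other in sequence, so the split of reads between relatives is uncertain.

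Outside the set, interferon genes themselves were hardly seen. Ifnb1 had 0 of 84645796 counts over the 6 libraries, which allows up to 0.0354 CPM, and 6 of 10 ligand genes had 0 counts in every library. Ifng had 1 count, in vector replicate 3, and the other 3 ligand genes had at most 2 counts in a library. The floor of 3 counts covers counting error only.

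Among the other genes of the pathway, 55 of 72 tested had positive log2 fold changes, where 51.8% of all genes did. Their median was 0.20, and 0 passed edgeR's adjusted p, as did 0% of all genes. At an unadjusted p under 0.05 by edgeR, 7 were higher and 1 lower, where 1.82% of all genes were higher and 2.22% lower. All 7 were among the 34 tested interferon-induced genes outside the set. The receptors Ifnar1, Ifnar2 and Ifngr1 had fitted log2 differences of 0.07, 0.25 and 0.04, with standard errors of 0.14, 0.26 and 0.17. The receptor and JAK-STAT list had a median of 0.05, the sensing and adaptor list 0.07 and the negative regulators 0.14. Interferon-induced genes outside the set had 29 of 34 members higher and a median of 0.41. The smallest unadjusted p in the higher direction belonged to Slfn5, a schlafen family gene (2.94 ± 0.43 FPKM with vector against 4.86 ± 1.16 in LINC00894), Sp110, a nuclear body protein (3.08 ± 0.814 and 5.64 ± 0.698), and Gbp4 (0.167 ± 0.0987 and 0.533 ± 0.258). In the lower direction they belonged to Irf2bpl (39.6 ± 1.13 and 31.9 ± 3.91), the kinase gene Jak2 (35.0 ± 3.15 and 29.5 ± 4.98) and Irf2bp2 (18.3 ± 5.47 and 14.3 ± 2.69). The pathway median was 0.06 without LINC00894 replicate 1.

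Markers of cells that carry interferon responses also differed between libraries. By summed FPKM, LINC00894 replicate 1 was the highest for endothelial, macrophage, neutrophil, lymphocyte, and fibroblast and meningeal lists. It was not the highest for the other lists, microglia among them. Summed FPKM of 11 endothelial markers was 87.1, 92.8 and 67.3 for vector against 164.7, 82.4 and 102.5 for LINC00894, and 2 of 10 tested had groups that did not overlap. Separated endothelial, neutrophil and microglial markers all had LINC00894 above vector. Over all genes tested, 7.86% were separated in that direction and 2.34% in the other. The lists are short, and these counts were not tested against those shares. Cldn5 was listed at 0 in every library. Summed FPKM of 8 macrophage and monocyte markers was 26.2, 29.0 and 9.33 for vector against 55.9, 19.7 and 42.8 for LINC00894, with 0 of 6 tested separate. Of these sums, Cd14 alone held 18.44, 19.62 and 3.07 FPKM for vector and 33.40, 13.11 and 33.05 FPKM for LINC00894. The list's median of log2 CPM minus the gene mean was 0.02, 0.19 and -0.82 for vector against 1.17, -0.59 and -0.25 for LINC00894. By that median LINC00894 replicate 3 lay below vector replicates 1 and 2. For 8 neutrophil markers the sums were 36.6, 14.8 and 9.20 FPKM (vector) against 93.5, 12.8 and 33.8 FPKM (LINC00894). Most of each sum came from S100a8 and S100a9, at 34.26 and 52.12 FPKM in LINC00894 replicate 1, and the groups overlapped for both. The 1 separated marker of the 3 tested was Csf3r, at 2.59, 2.21 and 1.09 FPKM with vector against 3.79, 2.68 and 2.77 FPKM with LINC00894. Mpo was at or below 0.11 FPKM throughout. For 14 microglial markers they were 334, 351 and 231 FPKM against 374, 358 and 471 FPKM, with 2 of 13 tested separate and Siglech at or below 0.07 FPKM. Lymphocyte markers summed to 2.20 to 4.65 FPKM, with Gzmb at 0 in every library, and 8 neuronal markers summed to 1584 in LINC00894 replicate 1 and to between 2078 and 2267 elsewhere. The part of cell composition in the members' values was not tested.

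**Figure D4:**
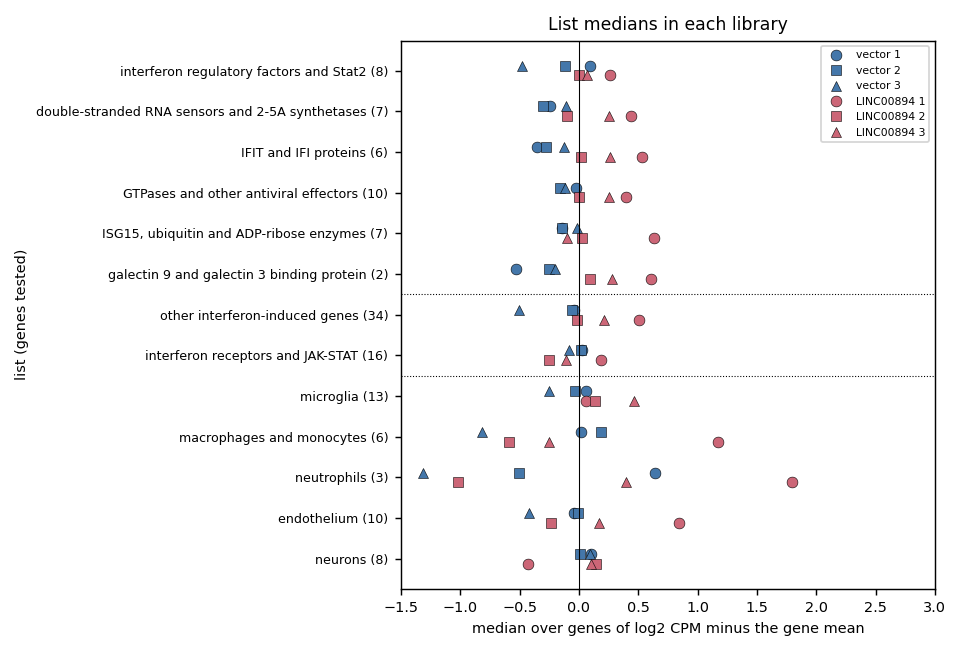
For each list the points give the median over its tested genes of log2 CPM minus the gene mean, 1 point per library, blue for vector and red for LINC00894, with a shape for each replicate; dotted lines separate the members' role groups, other pathway lists and cell markers. LINC00894 replicate 1 (red circles) is the highest point in all 6 role groups and among macrophage, neutrophil and endothelial markers, and the lowest for neurons.

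**Figure D5:**
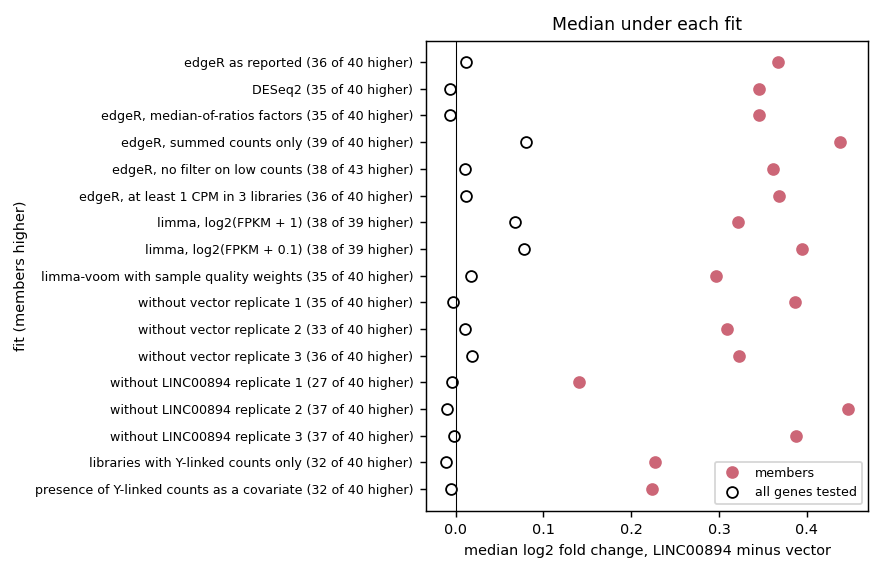
Filled points give the median log2 fold change of the tested members and open points that of all genes, under edgeR as reported and under each of the 16 alternative fits; the labels count members with a positive value. The members' median is positive in every fit shown and lowest, at 0.14, without LINC00894 replicate 1. Both fits on Y-linked counts set LINC00894 replicate 3 alone against vector.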

How the data were processed

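Per the file headers, the table that the authors deposited holds raw counts and FPKM values of rat genes in 6 libraries. The deposited FPKM equalled counts divided by exonic length and summed counts of each library, within 0.005. HISAT2 2.0.1 and DESeq2 are named in the submitters' processing notes; the sources used here give no counting tool, annotation or build. The members and gene lists were chosen with earlier results of these data known. Groups follow the genotype label, and replicates were numbered in accession order, which pairs nothing.

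Counts were tested with edgeR 4.0.16 (R 4.3.3; filterByExpr, minimum count 10 and total 15; TMM factors; quasi-likelihood F-test; Benjamini-Hochberg over all 15121 genes, threshold 0.05). Log2 fold changes are LINC00894 minus vector, without shrinkage. Alternatives were DESeq2 1.42.0, other scalings and filters, limma 3.58.1 on log2 FPKM (pseudocount 1 or 0.1; mean of at least 0.5 FPKM) or with voom sample weights, each library left out, and Y-linked counts (Kdm5d plus Eif2s3y of at least 100). The fits were also run on simulated counts, drawn independently for each gene and library without a shift of any library across many genes. That run cannot speak to such a shift. Named were members of at least 1 FPKM in either group mean by library, others by range, fixed pathway names, and the 3 pathway genes of smallest unadjusted p in each direction; 1 of the fixed pathway names is not reported here. Of 98 other pathway symbols 90 had a row, and of 99 marker symbols 93. Plots used matplotlib 3.10.9.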

Additional observations from a re-analysis of the deposited data

How the results depend on the processing

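No paired analysis was possible because the labels give the groups no shared replicate numbers. The members' median log2 fold change was positive under all 16 alternatives and 0 members were called under any. It was 0.14 to 0.45 with each library left out, 0.14 without LINC00894 replicate 1. Genes called numbered 11 by DESeq2, 8 without a filter and 0 to 9 with a library left out. Members at an unadjusted p under 0.05 by edgeR numbered 9 with summed counts as the only scaling, beside 637 of 15121 genes. With a library left out they numbered 1 to 8, and the count over all genes ran from 394 of 15400 to 1104 of 15417. Of 638 member values under alternatives, 578 kept their direction and 60, in 18 members, changed sign; the cause was not tested. With summed counts only, Ifit2, Irf3 and Rtp4 were at 0.019, 0.044 and 0.013, where the median over all genes was 0.080. By limma with a pseudocount of 1 they were at 0.059, 0.077 and 0.013, beside 0.067 over all genes. With a pseudocount of 0.1 they were at 0.092, 0.080 and 0.031, beside 0.078 over all genes. By voom with sample weights Ifit2, Oas1a and Irf2 were at 0.25, -0.0057 and -0.028. Herc6 was at -0.0137 by DESeq2, -0.0135 with median-of-ratios factors and -0.0081 without a filter. The fit to the 4 libraries with Y-linked counts and the covariate fit both set LINC00894 replicate 3 alone against vector, so they are not separate alternatives. In the 4 libraries with Y-linked counts, and in the covariate fit, Ifi44l was at -0.56 and -0.57, Irf2 at -0.068 and -0.071, Irf3 at 0.098 and 0.095, Irf7 at -0.26 and -0.27, Rtp4 at 0.18 and 0.18, Parp14 at -0.14 and -0.15, Trim25 at -0.48 and -0.49, and Samhd1 at -0.20 and -0.20. With each library left out in turn, ranges that crossed 0 were -0.37 to 0.49 for Ifit2, -0.21 to 0.69 for Ifit3, -0.18 to 0.50 for Ifi44l, -0.59 to 0.058 for Isg20, -0.32 to 0.32 for Oas1a, -0.052 to 1.48 for Oasl, -0.14 to 0.62 for Irf1, -0.078 to 0.076 for Irf2, -0.24 to 0.19 for Irf3, -0.0089 to 0.22 for Irf5, -0.23 to 0.34 for Irf7, -0.055 to 0.37 for Ddx58, -0.22 to 0.22 for Rtp4, -0.10 to 0.51 for Dtx3l, -0.10 to 0.094 for Herc6, -0.10 to 0.60 for Trim25 and -0.12 to 0.10 for Samhd1. Depth gives no direction for Ifit1, Oas2 and Oas3, which had at most 16 counts in a library.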

Other observations

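Vector replicate 3 did not sit at 1 end of the set. It was the lowest of the 6 libraries for 11 of the 40 tested members, 5 of them transcription factors, a share close to the 27.4% of all genes tested. It was the highest for 3 members, Ifit2, Rsad2 and Isg20, and for 19.4% of all genes. In the list of other interferon-induced genes it was the lowest library for 20 of 34 tested genes. These counts were made after the values were seen and carry no test.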
